A study of Mus musculus with 24 samples.

Results

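The genes described here are 36 components of the protein-folding machinery of the endoplasmic reticulum (ER), taken by symbol from the 41549 gene rows of a bulk RNA-seq table of dispersed mouse islet cells. They are 9 genes of the BiP and HSP90 chaperone system, 2 lectin chaperones, 6 thiol oxidoreductases, 10 genes of ER-associated degradation (ERAD), the 3 sensors of the unfolded protein response (UPR) with Xbp1, and 5 genes of the translocon and its associated TRAP complex. They were chosen by function, with no threshold on a measured value. All 36 were present in the table and all passed the filter on low counts, with between 105 and 81886 exon reads per library.

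Islets came from wild type C57BL/6NRj mice of both sexes, 12 to 14 weeks old, and were dissociated into single cells. Transcripts that mark beta, alpha and delta cells and several non-endocrine cell types were found in the libraries. Cells received 50 pmol of an antisense oligonucleotide (ASO), either a control (Ctr) or one directed against the tRNA-derived fragment 5'tRF Glu(CTC) (αGlu). They were then kept for 48 h with bovine serum albumin alone (BSA, 0.75%) or with 0.5 mM palmitate bound to albumin (PA), a saturated fatty acid. This gave 4 groups of 6 libraries each, named by ASO and medium as Ctr BSA, αGlu BSA, Ctr PA and αGlu PA, with 3 of every group in each of 2 labelled batches. All 4 groups were transfected, so none is an untreated culture, and what a batch stands for is left unsaid in the labels. The study describes replicates of primary cells as preparations from different animals, which the sample labels do not restate, so the p-values measure the spread between these libraries.

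Islet beta cells load the ER with proinsulin, and that load makes them depend on chaperones and on the UPR. Proteins enter through the SEC61 channel, are bound by BiP and its co-chaperones, are held by calnexin and calreticulin while they carry sugar chains, and receive disulfide bonds from oxidoreductases. Proteins that fail to fold are sent back to the cytosol by ERAD. The sensors IRE1α (Ern1), ATF6 and PERK (Eif2ak3) respond to unfolded protein, the first by splicing Xbp1 mRNA, the second by releasing a transcription factor, the third by slowing translation and raising ATF4. Reads counted per gene do not separate spliced from unspliced Xbp1 or cleaved from intact ATF6.

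The libraries held 18214719 to 35001979 exon reads, and the 36 genes took 0.952% to 1.86% of them. Beta-cell markers were the dominant cell-type signal, with the summed level of the 10 genes between 84080 and 152100 TMM-normalised CPM (a gene's reads scaled to a common library size) per library and no gene at 0. The summed level of 18 acinar (exocrine) markers was 3879 to 28810 CPM in batch 1 and 350.2 to 840.0 CPM in batch 2, and none of the 18 was at 0 throughout. The Ctr BSA library 1 stood apart from the other batch 1 libraries of its group, with the smallest read total, a scaling factor of 0.853 and a beta-marker sum of 134000 CPM against 87360 and 88120 CPM. The Ctr PA library 23 held the highest values of several of the genes below, and results that rest on either library are given without it.

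At baseline the folding machinery was among the abundant mRNAs of the islet. On the length-corrected TPM scale, which sums to the same total in every library, the median level over the 6 Ctr BSA libraries was 1229.8 for Hspa5, which encodes BiP, the central HSP70 of the ER and the inhibitor of the sensors, at rank 41 of all rows. The oxidoreductase Pdia3 (967 TPM), the lectin Calr (879 TPM), the HSP90 paralogue Hsp90b1 (844 TPM) and the disulfide isomerase P4hb (830.02 TPM) followed. The range over the 6 libraries was 728 to 1353 TPM for Hspa5. The sensors were far less abundant, with Ern1 at 109 TPM, Atf6 at 81.2 TPM and Eif2ak3 at 62.8 TPM. Derl2 (42.5 TPM) and Derl3 (9.39 TPM, rank 8455) were the lowest of the 36, and both encode derlins, membrane proteins of the ERAD channel. TPM orders genes within a library, while all fold changes below come from counts.

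Several of these genes are textbook carriers of the ER stress response element (ERSE), the letters CCAAT, then 9 bases of any kind, then CCACG, which is bound by NF-Y together with ATF6 or XBP1. Upstream sequence from RefSeq (GRCm38.p6, 250 bases before to 50 after the start) was at hand for 30 of the 36. The complete element, sought on both strands, was in 9 of these 30 (30%), against 37 of 27025 genes with such a sequence (0.137%). The genes were chosen as folding genes, so that share describes them and is no test. The 10 sites of the 9 genes are shown with 5 flanking bases, 5′ to 3′ along the gene's own strand, because they are the longest stretch of letters searched for that several of these genes share. Capitals mark the element, and a site that begins with CGTGG lies on the opposite strand.
Hspa5, chr2:34772025-34772043, gene on the plus strand: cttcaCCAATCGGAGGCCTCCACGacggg
Hsp90b1, chr10:86705638-86705656, gene on the minus strand: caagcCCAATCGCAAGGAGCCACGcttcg
Hsp90b1, chr10:86705533-86705551, gene on the minus strand: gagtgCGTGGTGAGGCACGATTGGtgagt
Dnajc3, chr14:118937827-118937845, gene on the plus strand: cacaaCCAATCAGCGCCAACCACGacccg
Creld2, chr15:88819520-88819538, gene on the plus strand: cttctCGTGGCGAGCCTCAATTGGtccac
Calr, chr8:84847075-84847093, gene on the minus strand: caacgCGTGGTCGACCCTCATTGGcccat
Canx, chr11:50325800-50325818, gene on the minus strand: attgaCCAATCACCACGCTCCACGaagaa
Pdia6, chr12:17266491-17266509, gene on the plus strand: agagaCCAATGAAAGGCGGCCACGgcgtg
Syvn1, chr19:6046532-6046550, gene on the plus strand: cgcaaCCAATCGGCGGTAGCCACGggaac
Derl3, chr10:75893242-75893260, gene on the plus strand: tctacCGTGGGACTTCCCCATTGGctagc
Counted from the first transcribed base as position 0, the sites lay between position -212 (the far end of the outer Hsp90b1 site) and position -26 (the near end of the Syvn1 site). Hsp90b1 carried 2 sites, one on each strand. By role the element was in 4 of 7 genes of the BiP and HSP90 system, both lectins, 1 of 6 oxidoreductases, 2 of 9 ERAD genes, 0 of 3 sensor genes and 0 of 3 translocon genes with a sequence. The shorter ERSE-II (ATTGG, 1 base of any kind, CCACG) was found in Herpud1 and, on the transcribed side of the start, in Dnajb11, and in 12 genes of 27025 (0.0444%). The letters TGACGTGG, the core of the XBP1-type UPR element, were in Txndc5 alone of the 30 (0.714% of all genes with a sequence). The letters CCACG, a part of the element that the complete ERSE and ERSE-II contain, were in 26 of 30 genes (86.7%) and in 35.5% of all genes. TGATG, 1 base of any kind, then AAT, letters of the kind ATF4 binds, were in 0 of 30 and in 1.08% of all genes. All motifs were sought on both strands, and a match is a description of letters, not of binding. The 250 bases upstream of Hspa5 are shown whole, since this is the most abundant of the genes and its single complete ERSE, in capitals, lies near the start.
Hspa5 upstream, chr2:34771840-34772089, plus strand: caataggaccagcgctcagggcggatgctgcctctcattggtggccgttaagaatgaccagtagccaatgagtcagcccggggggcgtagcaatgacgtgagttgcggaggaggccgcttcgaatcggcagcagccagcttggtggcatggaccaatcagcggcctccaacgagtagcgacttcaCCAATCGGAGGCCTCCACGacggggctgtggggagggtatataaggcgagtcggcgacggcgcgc

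Palmitate raised most of the folding genes in cells with the control ASO. With Ctr PA against Ctr BSA, 25 of 36 were higher and 0 were lower at an adjusted p below 0.05, where 15.3% of the 15916 genes tested were higher and 14.2% were lower. The median log2 fold change of the 36 was 0.24, against 0.0074 over all genes tested, and 35 of 36 values were positive. The changes were small, from -0.11 (Syvn1) to 0.56 (Derl1) on the log2 scale, so no gene of the 36 reached a 2-fold difference. These are whole-culture RNA levels, in which fewer cells of a type and less RNA per cell cannot be told apart.

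**Figure D1:**
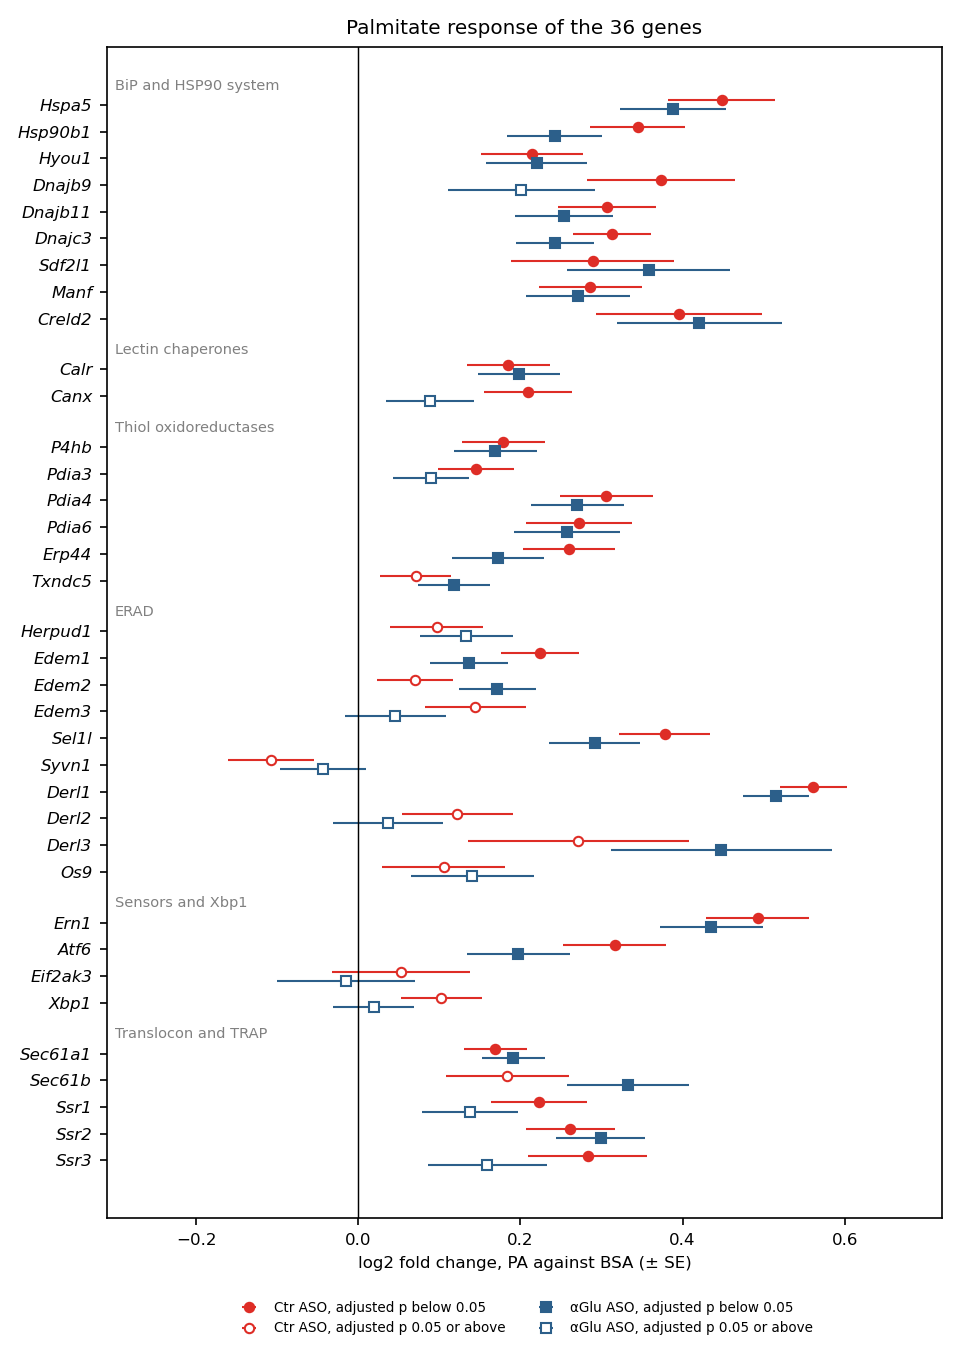
The log2 fold change of PA against BSA is plotted for each of the 36 genes (rows, grouped by role), in cells with Ctr ASO (red circles) and αGlu ASO (blue squares). Bars are SE, filled symbols have an adjusted p below 0.05. All 9 genes of the BiP and HSP90 system are filled in red, Syvn1 lies left of 0 in both, and Derl1 lies farthest right in both.

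The BiP and HSP90 system rose as a whole, 9 of 9 genes in Ctr. Hspa5 measured 1471, 1847 and 2030.2 CPM in Ctr BSA and 2136, 2414 and 2889 CPM in Ctr PA (lowest, median and highest of 6 libraries). Every PA library lay above every BSA library, and the difference was 0.45 ± 0.07 on the log2 scale (SE, adjusted p = 1.21e-05). Hsp90b1, which encodes GRP94, a chaperone with a narrow set of clients, measured 866, 1209 and 1358 CPM in Ctr BSA and 1337, 1464 and 1639.7 CPM in Ctr PA, a difference of 0.35 ± 0.06 on the log2 scale (SE, adjusted p = 7.51e-05). Its 2 groups overlapped only across batches, since within batch 1 and within batch 2 all 3 PA libraries exceeded all 3 BSA libraries.

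Dnajc3, the co-chaperone P58IPK, measured 270.3, 369 and 471 CPM in Ctr BSA and 365, 434 and 569 CPM in Ctr PA, a difference of 0.31 ± 0.05 on the log2 scale (SE, adjusted p = 2.21e-05). The remaining 6 had log2 fold changes of 0.21 to 0.40. They are Hyou1 (GRP170, a nucleotide exchange factor for BiP), Dnajb9 (ERdj4, a J-domain protein that holds IRE1α in check), Dnajb11 (ERdj3, a J-domain protein that hands clients to BiP), Sdf2l1 (a partner of ERdj3) and the secreted ER proteins Manf and Creld2. Sdf2l1 was the weakest call, at 0.29 ± 0.10 on the log2 scale (SE, adjusted p = 0.0328), and it was lost without Ctr BSA library 5, 9 or 13 or Ctr PA library 7, 11 or 15 (adjusted p 0.0635 to 0.105). Creld2 was at 0.40 ± 0.10 on the log2 scale (SE, adjusted p = 0.00506) and Dnajb9 at 0.37 ± 0.09 on the log2 scale (SE, adjusted p = 0.00291).

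**Figure D2:**
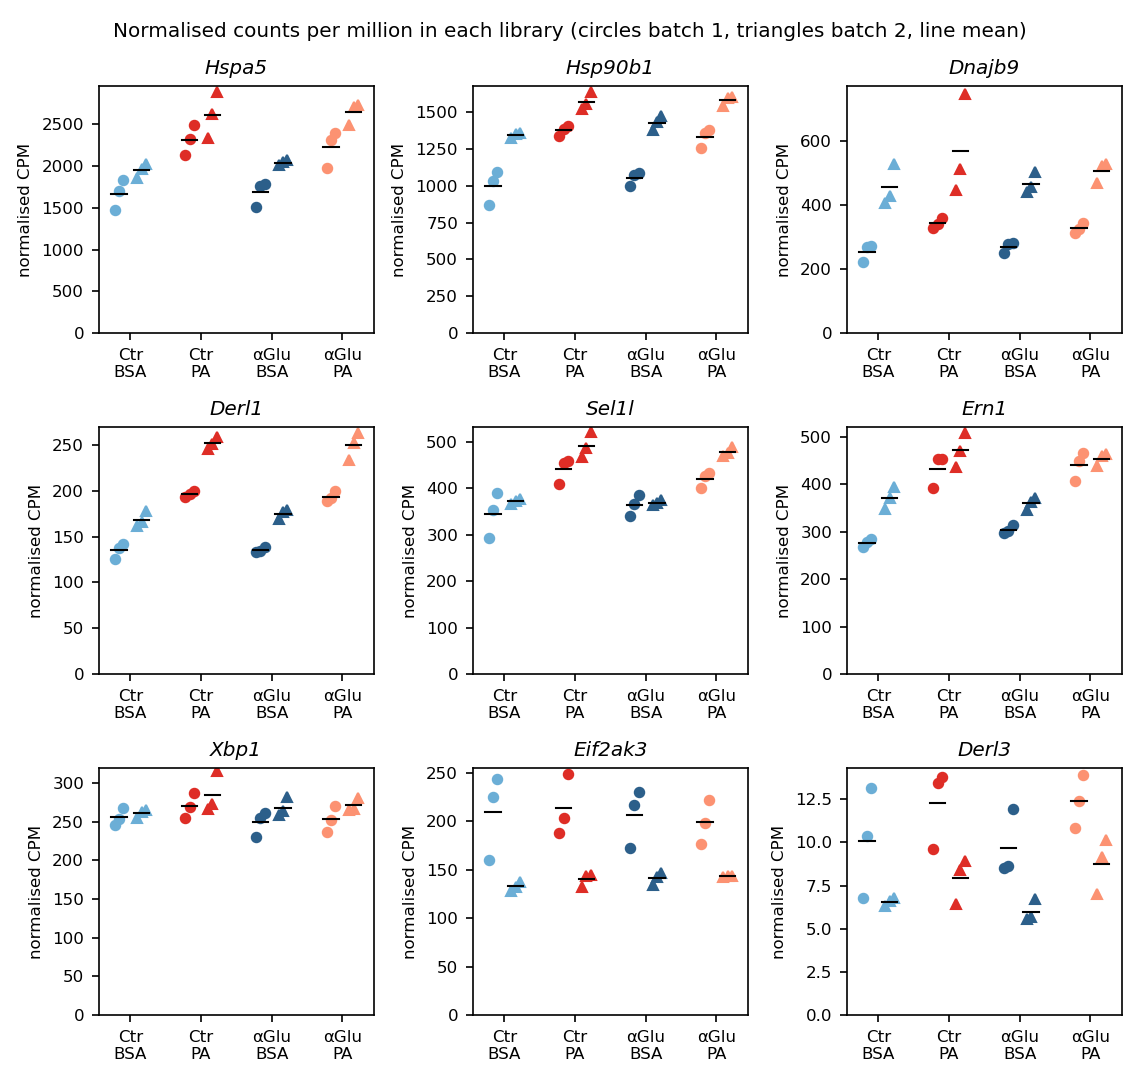
Normalised CPM of 9 of the genes is shown for every library, by group on the horizontal axis, with circles for batch 1, triangles for batch 2 and a line at the mean of each 3. PA libraries of Hspa5, Derl1 and Sel1l lie above all BSA libraries with Ctr ASO, Xbp1 is near one level throughout, and Eif2ak3 and Derl3 are lower in batch 2.

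Both lectin chaperones, which retain glycoproteins until they fold, were higher in Ctr PA. Calr, encoding calreticulin, measured 700.01, 906 and 1162 CPM in Ctr BSA and 824, 1013 and 1368 CPM in Ctr PA (log2 fold change 0.19 ± 0.05 SE, adjusted p = 0.00717). Canx, encoding the membrane-bound calnexin, measured 459, 592 and 679.6 CPM and 611, 656 and 818 CPM (log2 fold change 0.21 ± 0.05 SE, adjusted p = 0.00483), and its highest PA value came from library 23. Of the 6 oxidoreductases, 5 rose. Pdia4 (ERp72) measured 143, 185 and 215 CPM in Ctr BSA and 189.7, 218 and 269.5 CPM in Ctr PA (log2 fold change 0.31 ± 0.06 SE, adjusted p = 0.000238). Erp44, a thiol protein that retrieves escaped clients from the early secretory pathway, measured 90.3, 112 and 141 CPM and 109, 129 and 178 CPM (log2 fold change 0.26 ± 0.06 SE, adjusted p = 0.00109). Pdia6 (P5), a disulfide isomerase that also acts on IRE1α, measured 328, 469 and 642 CPM and 445, 512 and 781 CPM (log2 fold change 0.27 ± 0.07 SE, adjusted p = 0.00255). The groups of these 5 genes all overlapped over both batches. P4hb and Pdia3, which pairs with the lectins, were at 0.18 and 0.15 on the log2 scale, and the call of Pdia3 was lost without Ctr BSA library 13 or Ctr PA library 7 (adjusted p = 0.0510 and 0.0521). Txndc5 did not pass (log2 fold change 0.07 ± 0.04 SE, adjusted p = 0.236).

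ERAD was the role with the largest single change and the most genes that did not pass, with 3 of 10 higher in Ctr PA. Derl1, encoding derlin-1, was the top gene of all 36 by p and by size. It measured 126, 152 and 179 CPM in Ctr BSA and 194, 223 and 258 CPM in Ctr PA, with no overlap, and the difference was 0.56 ± 0.04 on the log2 scale (SE, adjusted p = 3.12e-10). Sel1l, the adaptor of the HRD1 ubiquitin ligase, measured 293, 369 and 389 CPM and 409.8, 463 and 520.4 CPM, again with no overlap (log2 fold change 0.38 ± 0.06 SE, adjusted p = 1.46e-05). Edem1, a mannosidase-like protein that selects glycoproteins for disposal, measured 150.4, 196 and 232 CPM and 189, 218 and 288 CPM (log2 fold change 0.22 ± 0.05 SE, adjusted p = 0.000872). Syvn1, which encodes the HRD1 ligase that SEL1L serves, had the one negative value of the 36 (log2 fold change -0.11 ± 0.05 SE, adjusted p = 0.132). Herpud1, a scaffold of the same complex, was at 0.10 ± 0.06 on the log2 scale (SE, adjusted p = 0.212). Edem2, Edem3, Derl2, Derl3 and Os9 lay between 0.07 and 0.27 without passing. Leaving out 1 library took Syvn1 past the threshold as lower (-0.14, adjusted p = 0.0499, without Ctr PA library 11), and Derl3 and Os9 as higher (0.37 without Ctr BSA library 9 and 0.18 without Ctr PA library 23).

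Among the sensors, Ern1 and Atf6 rose and the mRNA of PERK did not pass. Ern1 measured 268, 317 and 394 CPM in Ctr BSA and 392, 454 and 509 CPM in Ctr PA, overlapping by the lowest PA library of batch 1 and the highest BSA library of batch 2 (log2 fold change 0.49 ± 0.06 SE, adjusted p = 2.36e-06). Atf6 measured 196, 264 and 289 CPM and 288, 315 and 391 CPM (log2 fold change 0.32 ± 0.06 SE, adjusted p = 0.000467). Xbp1 measured 246, 259 and 268 CPM and 255, 271 and 315 CPM, groups that overlapped (log2 fold change 0.10 ± 0.05 SE, adjusted p = 0.124). Eif2ak3 measured 128, 149 and 244 CPM and 132, 167 and 249 CPM, groups that overlapped (log2 fold change 0.05 ± 0.09 SE, adjusted p = 0.68).

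In the translocon, 4 of 5 genes rose. Ssr2, a subunit of TRAP, which assists the entry of certain signal sequences, measured 116, 158 and 185 CPM in Ctr BSA and 151, 176 and 232 CPM in Ctr PA (log2 fold change 0.26 ± 0.05 SE, adjusted p = 0.000724). Sec61a1, the pore subunit of the channel, measured 281, 329 and 371 CPM and 314, 373 and 424 CPM (log2 fold change 0.17 ± 0.04 SE, adjusted p = 0.00185). Ssr3 measured 267, 380.2 and 480.4 CPM and 359, 433 and 677 CPM (log2 fold change 0.28 ± 0.07 SE, adjusted p = 0.00461), with the highest value again in library 23. Ssr1 was higher by 0.22, and the small channel subunit Sec61b did not pass (log2 fold change 0.18 ± 0.08 SE, adjusted p = 0.0677). Sec61b passed when Ctr BSA library 1 was left out (0.24, adjusted p = 0.01145), which brought the number of genes higher in Ctr PA to 26. Without Ctr PA library 23 the number was 27, with Sec61b (0.23, adjusted p = 0.0152) and Os9 added.

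In cells with the αGlu ASO the same comparison gave 24 of 36 genes higher and 0 lower, where 14.3% of all genes tested were higher and 14% lower. The median log2 fold change was 0.20 against 0.0055 over all genes tested. Hspa5 measured 1507, 1899 and 2069.7 CPM in αGlu BSA and 1978, 2442 and 2735 CPM in αGlu PA (log2 fold change 0.39 ± 0.07 SE, adjusted p = 7.30e-05). Derl1 measured 133, 154 and 179 CPM and 189, 217 and 263 CPM (log2 fold change 0.52 ± 0.04 SE, adjusted p = 1.55e-09), Sel1l 339.8, 366 and 385 CPM and 401, 451 and 488 CPM (log2 fold change 0.29 ± 0.06 SE, adjusted p = 0.000322). Ern1 measured 297, 330.5 and 372 CPM and 406, 455 and 467 CPM (log2 fold change 0.44 ± 0.06 SE, adjusted p = 1.22e-05). The groups of Derl1, Sel1l and Ern1 did not overlap.

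The 2 palmitate comparisons share no library, and 20 genes passed in both. How many of all genes tested passed in both was not counted, so the 20 stands without a reference. The 2 comparisons are not independent, since a single fit gave both and the study draws the groups of a replicate from the same animal or passage. Dnajb9, Canx, Pdia3, Ssr1 and Ssr3 passed with Ctr ASO and not with αGlu ASO, and Txndc5, Edem2, Derl3 and Sec61b the other way round. Herpud1, Edem3, Syvn1, Derl2, Os9, Eif2ak3 and Xbp1 passed in neither. These splits do not show a difference in response. The test of the difference itself called 0 of 36 genes in edgeR and 0 in DESeq2, as it called 0% of all genes tested. An unadjusted p below 0.05 in edgeR was found for 0 of 36, and for 311 of the 15916 genes tested. The 36 differences ran from -0.17 (Dnajb9) to 0.18 (Derl3), with 95% intervals that together spanned -0.44 to 0.58. In αGlu cells the calls of Txndc5 and Edem1 were lost on leaving out 1 library in 13 and 9 of 24 cases, with adjusted p up to 0.0982 and 0.0802. Erp44 was lost without αGlu BSA library 2 or αGlu PA library 20, and Atf6 without αGlu PA library 12. Dnajb9, Ssr1 and Ssr3 passed there without Ctr PA library 23, and Herpud1 without αGlu BSA library 10 or αGlu PA library 8. With sets of 4 consecutively numbered libraries as a block, a fit chosen after seeing the data, 28 genes passed in each ASO, with Edem3, Derl3 and Sec61b added in Ctr and Dnajb9, Herpud1, Ssr1 and Ssr3 in αGlu. Under that fit 18% of all genes tested were higher in Ctr and 17.1% in αGlu, also more than in the main fit.

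The ASO itself moved none of the 36 past the threshold. With αGlu against Ctr, 0 of 36 passed in BSA, 0 in PA and 0 over both media, in edgeR and in DESeq2 alike. Over all genes tested the edgeR shares were 0% in BSA, 0% in PA and 0.226% over both media. In edgeR 0 of 36 had an unadjusted p below 0.05 in any of the 3. Of the 15916 genes tested, 437 had one in BSA, 521 in PA and 596 over both media. Hspa5 is an example, at 0.04 ± 0.07 on the log2 scale (SE, adjusted p = 1.00) in BSA and -0.02 ± 0.07 on the log2 scale (SE, adjusted p = 0.995) in PA. The estimates lay between -0.10 and 0.08 in BSA and between -0.11 and 0.13 in PA. The widest 95% intervals reached -0.39 (Derl3) and 0.27 (Creld2) in BSA, and -0.30 (Dnajb9) and 0.36 (Derl3) in PA.

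The folding genes also differed between the 2 batches. In batch 2 against batch 1, 33 of 36 genes were higher and 2 lower, where 26% of all genes tested were higher and 25.3% lower, and the median log2 difference was 0.37 against 0.0039 over all genes. Every batch 2 library lay above every batch 1 library for 20 of the 36 genes, against 3.23% of all genes tested. The largest were Sdf2l1 (log2 fold change 0.75 ± 0.07 SE, adjusted p = 3.94e-09) and Dnajb9 (log2 fold change 0.75 ± 0.06 SE, adjusted p = 5.29e-10), and Pdia6 was at 0.67 ± 0.05 on the log2 scale (SE, adjusted p = 1.27e-11). Hspa5 was higher by less (log2 fold change 0.23 ± 0.05 SE, adjusted p = 0.000156). Xbp1 alone did not pass (log2 fold change 0.08 ± 0.04 SE, adjusted p = 0.0682), and it did on leaving out Ctr BSA library 1, Ctr PA library 7 or 19 or αGlu PA library 8 (0.09, adjusted p 0.0361 to 0.0483).

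The 2 genes lower in batch 2 were Eif2ak3 and Derl3. Eif2ak3 ran from 160.4 to 249 CPM over the 12 libraries of batch 1 and from 128 to 147 CPM over those of batch 2, with no overlap (log2 fold change -0.57 ± 0.06 SE, adjusted p = 1.61e-08). Derl3 ran from 6.77 to 13.9 CPM and from 5.58 to 10.1 CPM (log2 fold change -0.61 ± 0.10 SE, adjusted p = 7.17e-06). Over the same contrast 17 of 18 acinar markers were lower, with a median log2 difference of -4.40, the exception being Bhlha15 (0.77). All 10 of 10 beta-cell markers were higher, with a median of 0.54. Of 8 alpha-cell markers 5 were lower and 1 higher, and of 7 ductal markers 5 were lower and 1 higher. Of 7 endothelial markers 4 were lower, of 5 delta-cell markers 2, and both tested B and plasma cell markers. Of 10 macrophage markers 3 were higher and of 7 glia markers 1, while 0 of 7 fibroblast and stellate markers passed. Whether these marker differences reflect cell makeup, and their part in the batch difference of the folding genes, was not tested.

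**Figure D3:**
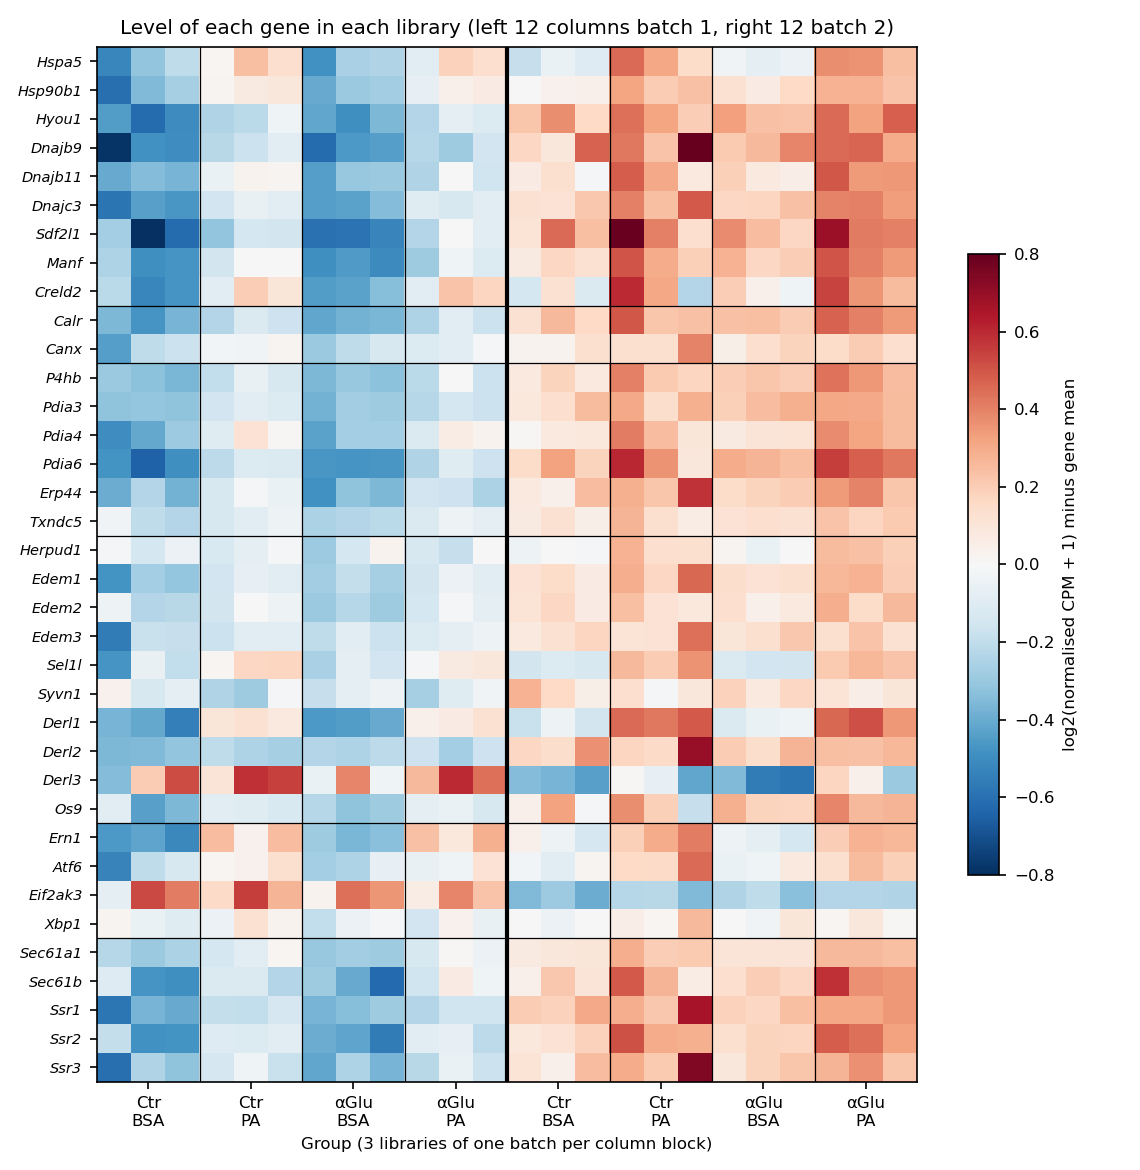
Each row is one of the 36 genes and each column one library, 12 of batch 1 on the left and 12 of batch 2 on the right, in blocks of 3 by group. Colour is log2(normalised CPM + 1) minus the gene's mean over all 24 libraries. PA blocks are redder than the BSA blocks of the same batch in both ASOs, the right side is redder than the left, and Eif2ak3 and Derl3 run the other way between batches.

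The palmitate difference was also taken inside each batch, where fewer genes passed. With Ctr ASO, all 3 PA libraries exceeded all 3 BSA libraries in 26 of 36 genes in batch 1 (15.6% of all genes tested) and in 15 in batch 2 (14%). With αGlu ASO this held for 29 genes in batch 1 (19.6%) and 25 in batch 2 (18.9%). Over all 6 libraries a group, where the batches widen each group, it held for 3 genes in Ctr (Hspa5, Sel1l and Derl1, 2.97% of all genes) and 3 in αGlu (4.17%). In none of these 6 settings did a gene of the 36 have every PA library below every BSA library. Fitted alone, batch 1 gave 17 genes higher in Ctr (6.67% of all genes tested) and 14 in αGlu (5.21%). Batch 2 alone gave 9 in Ctr (5.97%) and 6 in αGlu (5.85%), and 0 were lower in any of the 4 fits. The median log2 fold change of the 36 in Ctr was 0.26 in batch 1 and 0.20 in batch 2.

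Ern1 rose by 0.64 in batch 1 and by 0.35 in batch 2 with Ctr ASO, and Hsp90b1 by 0.45 and 0.23. Herpud1 was at -0.01 in batch 1 (adjusted p = 0.945) and at 0.20 in batch 2 (adjusted p = 0.0494). The palmitate responses of the 2 batches, averaged over both ASOs, did not differ past the threshold for any of the 36 in edgeR or in DESeq2 (0.0565% of all genes tested passed). Unadjusted p values below 0.05 were found for 5 of the 36 genes, and for 936 of the 15916 genes tested. Of the 5, Ern1, Hsp90b1, Hyou1 and Dnajc3 responded less in batch 2 and Herpud1 more. The difference was -0.25 ± 0.07 on the log2 scale (SE, adjusted p = 0.481) for Ern1, -0.22 ± 0.07 on the log2 scale (SE, adjusted p = 0.626) for Hsp90b1 and 0.21 ± 0.07 on the log2 scale (SE, adjusted p = 0.628) for Herpud1.

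Markers of some other cell types moved with palmitate in the same libraries. Over all genes tested 15.3% were higher and 14.2% lower in Ctr, and 14.3% higher and 14% lower in αGlu. In Ctr, 11 of 18 acinar markers were lower with PA and Bhlha15 was higher (0.35), and the summed acinar level ranged from 592 to 28810 CPM in BSA and from 350.2 to 10740 CPM in PA. Of 7 tested fibroblast and stellate markers 5 were lower, their sum ranging from 134 to 563 CPM in BSA and from 11.2 to 63.1 CPM in PA. Of 10 macrophage markers 7 were lower, with sums of 78.9 to 377 CPM in BSA and 85.3 to 129.9 CPM in PA. Of 10 beta-cell markers 3 were lower (Ins1, Ins2 and Mafa) and 3 higher (Iapp, Ucn3 and G6pc2), with sums of 87360 to 135200 CPM and 84240 to 132000 CPM. Of 7 ductal markers 3 were lower, and both tested B and plasma cell markers. Of 8 alpha-cell markers 1 was higher and 1 lower, and of 5 delta-cell markers 1 was lower. Of 7 endothelial and 7 glia markers 0 passed. In αGlu, 7 of 18 acinar markers were lower and 1 higher, with sums of 694 to 17650 CPM in BSA and 504 to 9560 CPM in PA. There 4 of 7 fibroblast and stellate markers were lower, with sums of 88.6 to 1079 CPM and 12.1 to 171.8 CPM, 3 of 7 ductal markers were lower, and 2 of 10 beta-cell markers were lower and 3 higher. Also in αGlu, 1 of 8 alpha-cell markers was higher, and 1 of 5 delta-cell and 1 of 2 B and plasma cell markers were lower. Endothelial and glia markers again gave 0 of 7 each. Of the 10 macrophage markers 1 was lower in αGlu, with a median log2 fold change of -0.17 against -2.17 in Ctr. The difference in response between the ASOs was positive for 10 of 10, with a median log2 difference of 2.01. In the edgeR test of that difference 4 of 10 had an unadjusted p below 0.05, as did 311 of the 15916 genes tested. After adjustment 0 of 10 passed, as did 0% of all genes tested. The part of these other cell types in the palmitate results of the folding genes was not tested.

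The genes with a complete ERSE did not move as one. With Ctr PA against Ctr BSA, 7 of the 9 were higher, where 15.3% of all genes tested were higher. The 9 had a median log2 fold change of 0.27 and a range of -0.11 (Syvn1) to 0.45 (Hspa5). Of the 21 genes whose upstream sequence held no complete ERSE, 12 were higher, with a median of 0.18 and a range of 0.05 (Eif2ak3) to 0.49 (Ern1). All 6 genes without a sequence to search were higher, Derl1 among them. In αGlu cells the medians were 0.24 for the 9 and 0.16 for the 21. The Hspa5 site spans positions -65 to -47 and the Syvn1 site -44 to -26, and the first of these genes rose while the second did not pass. Derl3, with its site at positions -156 to -138, did not pass in Ctr either. Any part of site position was not tested.

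Wider lists of the same biology give the frame. Of 115 other genes of ER protein handling, 57 were higher and 4 lower in Ctr PA (median log2 fold change 0.17). In αGlu PA 56 were higher and 1 lower. The shares of all genes tested were 15.3% higher and 14.2% lower in Ctr, and 14.3% and 14% in αGlu. The 5 of smallest p in Ctr were Ufm1, a ubiquitin-like modifier (log2 fold change 0.51 ± 0.05 SE, adjusted p = 5.20e-08), Erlin1, an ERAD factor for the IP3 receptor (log2 fold change 0.62 ± 0.06 SE, adjusted p = 5.96e-08), Serp1, a translocon-associated protein (log2 fold change 0.53 ± 0.07 SE, adjusted p = 2.05e-06), Spcs2, a signal peptidase subunit (log2 fold change 0.39 ± 0.05 SE, adjusted p = 2.25e-06), and Lman1, a cargo receptor for ER exit (log2 fold change 0.39 ± 0.05 SE, adjusted p = 3.22e-06). The 4 lower in Ctr, named after their values were seen, were Fkbp10 (-1.61), Pdia2 (-1.21), Bak1 (-0.33) and Traf2 (-0.28). Fkbp10 serves collagen folding and Pdia2 is an isomerase of the exocrine pancreas. Bak1 and Traf2 are proteins of apoptosis and of IRE1α signalling.

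The output of PERK and ATF4 was also measured. Of 23 genes on that list 13 were higher and 3 lower in Ctr PA, with a median of 0.33. In αGlu PA 16 were higher and 1 lower. The shares of all genes tested were 15.3% higher and 14.2% lower in Ctr, and 14.3% and 14% in αGlu. Ddit3, encoding the pro-apoptotic factor CHOP, measured 36.2, 50.6 and 63.7 CPM in Ctr BSA and 48.5, 79.5 and 89.7 CPM in Ctr PA, groups that overlapped (log2 fold change 0.60 ± 0.13 SE, adjusted p = 0.00134). In αGlu it measured 33.2, 47.4 and 60.7 CPM and 67.2, 76.1 and 81.2 CPM, with no overlap (log2 fold change 0.72 ± 0.13 SE, adjusted p = 0.000243). In Ctr, Atf4 measured 338, 348 and 372 CPM and 386, 405 and 429 CPM, also without overlap (log2 fold change 0.20 ± 0.05 SE, adjusted p = 0.00273). Trib3, a pseudokinase induced by ATF4 and CHOP, was at 0.68 ± 0.09 on the log2 scale (SE, adjusted p = 5.51e-06), Vldlr, a lipoprotein receptor, at 0.33 ± 0.05 on the log2 scale (SE, adjusted p = 2.80e-05), Atf5, a related factor, at 0.41 ± 0.08 on the log2 scale (SE, adjusted p = 0.000182) and the serine synthesis enzyme Psat1 at 0.38 ± 0.08 on the log2 scale (SE, adjusted p = 0.0013). The 3 that were lower, named after their values were seen, were the death receptor gene Tnfrsf10b (log2 fold change -0.88 ± 0.12 SE, adjusted p = 3.69e-06), Ddit4 (-0.36) and Sesn2 (-0.20).

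Between batches 7 of these 23 genes were higher and 14 lower in batch 2, with a median of -0.29. Of all genes tested 26% were higher and 25.3% lower. Ddit3 was among those lower (log2 fold change -0.29 ± 0.09 SE, adjusted p = 0.0116). With αGlu against Ctr 0 of 23 passed in either medium or over both, and 0 differed in their palmitate response, in edgeR. Unadjusted p values below 0.05 were found for 1 gene in these 4 comparisons, Cebpb over both media (-0.19, adjusted p = 1.00). Of the 15916 genes tested, 437 had such a p in BSA, 521 in PA, 596 over both media and 311 for the palmitate response.

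**Figure D4:**
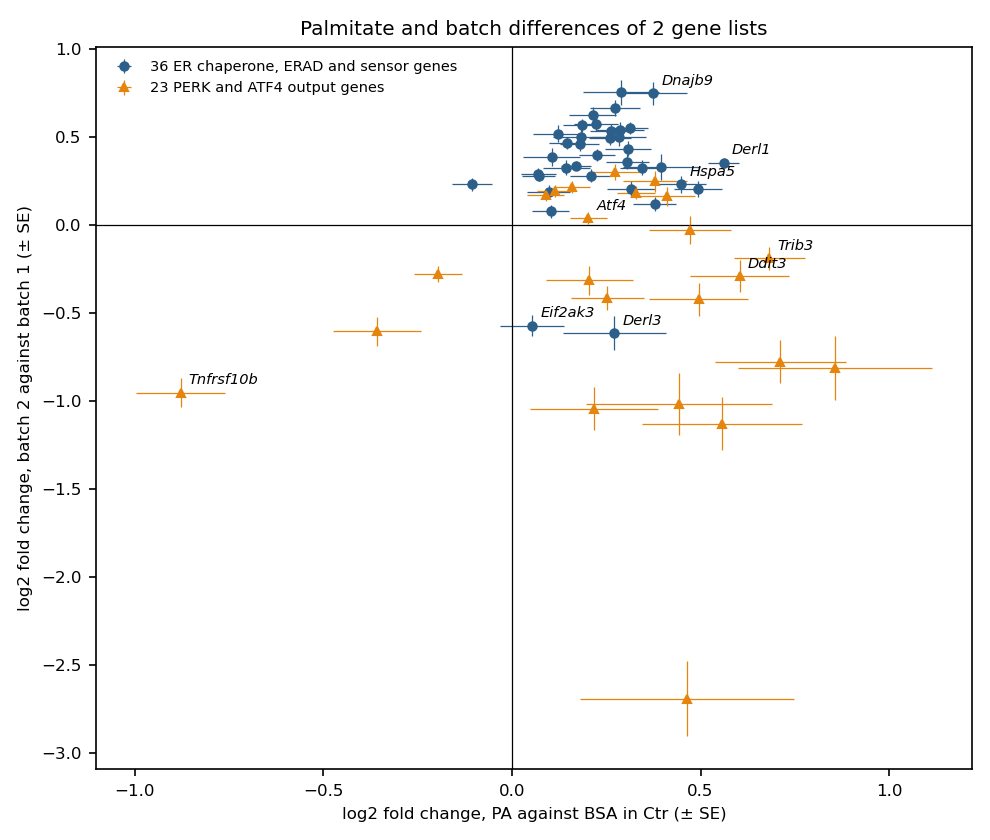
Each point is a gene, with the log2 fold change of PA against BSA in Ctr on the horizontal axis and of batch 2 against batch 1 on the vertical axis (bars are SE). The 36 folding genes (blue circles) lie mostly right of 0 and above 0, and the 23 PERK and ATF4 output genes (orange triangles) mostly right of 0 and below 0, with Tnfrsf10b at lower left.

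Chaperones outside the ER were counted in the same way. Of 15 heat-shock genes 5 were higher and 1 lower in Ctr PA, with a median of 0.15. In αGlu PA 7 were higher and 2 lower. The shares of all genes tested were 15.3% higher and 14.2% lower in Ctr, and 14.3% and 14% in αGlu. The 5 of smallest p in Ctr were the mitochondrial chaperonins Hspd1 (log2 fold change 0.30 ± 0.05 SE, adjusted p = 4.35e-05) and Hspe1 (log2 fold change 0.35 ± 0.07 SE, adjusted p = 0.000223), Dnajb4, a cytosolic J-domain protein (log2 fold change -0.25 ± 0.07 SE, adjusted p = 0.00894), and the HSP110 and HSP90 family genes Hspa4l (log2 fold change 0.20 ± 0.06 SE, adjusted p = 0.0192) and Hsp90aa1 (log2 fold change 0.21 ± 0.07 SE, adjusted p = 0.0258). Whether the list differs from the folding genes was not tested.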

How the data were processed

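Dispersed mouse islet cells were profiled by poly(A) RNA-seq in 24 libraries (Illumina stranded mRNA kit). Reads were mapped to GRCm38, per the labels, and counted in a commercial portal by the authors, who deposited exon read counts and TPM (used here) and 48 RPKM and CPM columns (not used). No source used here gives the aligner's settings or the strand rule of the counting. By GENCODE M21, 12 of the 36 genes share exon bases with another gene. The largest share with any 1 other gene was 12.8% of a gene's exon bases (Ssr2), and shares with several genes were not summed. Deposited counts were tested with edgeR 4.0.16 (R 4.3.3): TMM scaling, default filter by group (15916 genes), quasi-likelihood fit of group and batch, Benjamini-Hochberg adjustment over all genes tested. The difference of palmitate responses between batches used a fit of group by batch. SE is the fold change over the root of F, and intervals are 95%. Normalised CPM uses TMM library sizes. DESeq2 1.42.0 and other settings were alternatives. The steps were tested on simulated data. Named were all 36 genes, the 3 of smallest p per role with values, and 5 per wider list with Ddit3 and Atf4. Ero1a, Ero1b, Hm13 and Ddit3 carry other names in the table and were matched by synonym or identifier. Genes and lists were chosen with earlier results of these data known.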

Additional observations from a re-analysis of the deposited data

Results flagged for a closer look

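In 4 of 144 sets of 6 libraries (36 genes in 4 groups), the highest or lowest library was separated from the rest by more than 0.625 of the set's range, Dixon's 95% critical value. Chance flags about 1 in 20 such sets. In Ctr PA, library 23 was the highest for Canx, at 818 CPM against 611 to 680 CPM in the other 5, and for Atf6, at 391 CPM against 288 to 318 CPM. In Ctr BSA, library 1 was the lowest for Sel1l, at 293 CPM against 354 to 389 CPM, and library 5 was the lowest for Herpud1, at 264 CPM against 283 to 292 CPM. The calls of Canx, Atf6 and Sel1l in Ctr PA against Ctr BSA were kept without each of these libraries.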

How the results depend on the processing

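In every alternative run, 0 of the 36 genes passed in the 3 αGlu comparisons and in both differences of palmitate response. In the palmitate comparisons the numbers that passed (25 in Ctr, 24 in αGlu) stayed within 20 to 28 under DESeq2, upper-quartile scaling, no filter, a stricter filter (10 counts in 12 libraries) and a fit of the compared groups only, and leaving out the 18 acinar genes, an alternative chosen after seeing the data, gave 25 and 24. Without the batch term the numbers were 5 in Ctr and 4 in αGlu. Batch 1 alone (3 libraries a group) gave 14 in αGlu, and batch 2 alone gave 9 in Ctr and 6 in αGlu. At the study's threshold, a log2 fold change past 1 with p below 0.05, 0 passed in Ctr, 0 in αGlu and 0 between batches. The study's text does not say whether that p is adjusted, and the unadjusted p was used here. Over all genes tested 935 passed so in Ctr, 879 in αGlu and 1009 between batches. Leaving out 1 library at a time gave 23 to 27 in Ctr, 21 to 27 in αGlu and 35 to 36 between batches. No gene reversed, and of 1732 values with 1 library left out 33 lost and 14 gained a call. These are all values of the palmitate comparisons, with batch values included only where the call changed, which were 4 gains of Xbp1. Over all genes tested, 4697 and 4507 were called with the batch term and 2287 and 2255 without it, a smaller fall than that of the 36 genes, and the number of all genes tested that were called with αGlu over both media, 36 by coincidence and none of them a folding gene, was 90 in DESeq2, 5 with no filter and 12 with the stricter filter. No label gives libraries of different groups a shared replicate number, while the study states that the groups of a replicate came from the same animal or passage. Sets of 4 consecutive library numbers hold 1 library of each group, and 23 of 24 libraries deviated from the mean of their group and batch most like one of their own set (r within sets 0.0183 to 0.370, median 0.152), a hint from the data rather than the labels. With these 6 sets as a replicate block, an alternative chosen after seeing the data, 28 genes passed in Ctr and 28 in αGlu, 0 in the 3 αGlu comparisons and 0 in both differences of response, and no call of the 36 was lost. In the palmitate comparisons of that fit, 18% of all genes tested were higher in Ctr and 17.1% in αGlu. Read totals of 18214719 or more leave the genes at 105 counts or more, with Derl3 the least precise.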
